A study of Mus musculus with 161 samples.

Results

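The 8 chemokine ligand genes described here are Ccl6, Ccl9, Ccl2, Ccl3, Ccl4, Cxcl2, Cxcl10 and Cxcl16. They were taken by symbol from a table of 43280 gene rows, in which each of them has 1 row, and 29 other chemokine ligand genes of the mouse were looked up for comparison. The study sequenced mRNA of single mouse cells caught on a Fluidigm C1 chip, a microfluidic device that lyses each captured cell in its own chamber and copies its RNA with oligo(dT) primers. Its 161 libraries come from untreated C57BL/6 mice and are primary cells of 3 sorted populations. The 66 common monocyte progenitors (cMoP) are bone marrow cells gated as Lin-CD117+CD115+CD135-Ly6C+. The 57 bone marrow (BM) monocytes carry the same gate without CD117, and the 38 blood monocytes were gated as CD115+CD11b+Ly6Chi. No age, sex or animal is named in the labels, which describe how bone marrow was prepared and enriched with magnetic beads and give no separate account for blood. Each population therefore counts as 1 sample, cells are not replicates, and no test between populations was made.

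Chemokines are small secreted proteins that bind G protein-coupled receptors and direct the movement of leukocytes. CC and CXC ligands are named after the spacing of their first cysteines, and most of them are kept near cell surfaces by binding to proteoglycans. In the monocyte lineage, Ccl2 acting on the receptor Ccr2 draws Ly6C-high monocytes out of the bone marrow, while ligands such as Ccl3, Ccl4 and Cxcl2 are made quickly after inflammatory stimuli.

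Values are TPM, an abundance per transcript length scaled to a fixed total per cell, so levels of different genes can be compared as TPM. A gene listed at 0 in a cell may have been lost in capture. The measure of a difference was that between population means of log2(TPM + 1), later population minus earlier, and a gene was called higher or lower where it reached 1 in size. An error given as ± is the SD over cells. Shares of cells carry exact (Clopper-Pearson) 95% intervals for the number of cells counted, and no other source of error is in them.

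Some libraries stand apart. Of the cMoP, 6 have no flow cell in their label and hold 8720 to 9971 genes above 1 TPM, against at most 7552 in the other 60 cMoP. All of the monocyte libraries share 1 flow cell lane and those 60 cMoP another, so that a difference between cMoP and monocytes cannot be told apart from one between sequencing lanes. Another 11 cMoP carry over 15% of their TPM in mitochondrial genes, and 7 cMoP, 2 BM and 4 blood libraries have under 5% in ribosomal protein genes. The median number of genes above 1 TPM was 6661.5 for cMoP, 4719 for BM and 4319.5 for blood cells. No index pair was used by more than 1 library of a lane (0 pairs, 155 libraries with a pair in the label), and no pair of libraries correlated above r = 0.835 over all genes.

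The labels were checked against marker genes. The summed TPM of 7 progenitor markers had a median of 17777 for cMoP, 8.23 for BM and 7.20 for blood cells. It passed 100 TPM in 66 cMoP, 13 BM and 3 blood monocytes, with a highest value of 1734.62 TPM among BM monocytes. Kit, which encodes CD117, was listed at 0 in all BM monocytes, while the other 6 markers were above 0 in some. In blood monocytes Mpo and Elane were at 0 throughout, and Kit was not. The sum of 8 monocyte markers had medians of 7038, 63105 and 63304 TPM. Other lineages that make chemokines were looked for as well. Markers of basophils and mast cells passed a sum of 100 TPM in 5 cMoP, with a highest sum of 1559.54 TPM. Of the 6 markers, 3 were above 0 in cMoP, while Prss34, Fcer1a and Gata2 were at 0. Their sum reached at most 0.34 TPM in any monocyte. The macrophage markers Cd5l and Marco were at 0 everywhere, while 5 of the 9 were above 0 in BM and in blood monocytes. The macrophage sum passed 100 TPM in 1 BM and 5 blood monocytes, with highest values of 248.51 and 354.55 TPM. Ncr1 and Gzma of NK cells, Cd3e of T cells and Cd79a of B cells were at 0 in all 161 cells. Other markers of these lists were not: 4 of 6 T cell and 2 of 6 B cell markers were above 0 in each population. The highest T cell sum was 1001.3 TPM, in a BM monocyte, and the highest B cell sum 15.54 TPM, in a cMoP. For NK cells 5 of 7 markers were above 0 in cMoP, with a highest sum of 2803.38 TPM. The NK cell sum passed 100 TPM in 36 cMoP and 0 monocytes, and its marker Nkg7 was at 0 in all monocytes. In cMoP, BM and blood monocytes in turn, a sum over 100 TPM was found in 4, 15 and 6 cells for neutrophil markers, with Ngp at 0 in all, in 4, 16 and 3 for conventional and 11, 4 and 5 for plasmacytoid dendritic cells. For erythroid markers it was found in 5, 2 and 0 cells, for T cells in 1, 1 and 0, and for stroma and endothelium in 15, 0 and 0. No cell passed it for eosinophil, B cell or platelet markers. Pf4 and Ppbp, which are platelet chemokines as well as markers, were also listed at 0 throughout. Of the 7 neutrophil markers, Ngp, Camp, Ltf and Retnlg were at 0 in all monocytes. The highest neutrophil sums were 1340.67 TPM in BM and 1733.79 TPM in blood monocytes. The highest values of its marker Mmp8 in these populations were 1340 and 1733.79 TPM.

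Promoter sequences help to place 4 of the members. The RefSeq promoter table (GRCm38.p6, 250 bases before to 50 after each start) held 5 of the 8 members, Ccl3, Ccl6, Ccl9, Cxcl2 and Cxcl10, while Ccl2, Ccl4 and Cxcl16 were not matched. The Cxcl2 stretch is shown because it holds 2 matches to an NF-kB-like motif and because this gene had the largest positive difference from BM to blood monocytes among the members. The Cxcl10 stretch shows a different makeup, with 1 match each to an interferon-response-like, an NF-kB-like and an AP-1-like motif, in that order. Capitals mark the matches, and both sequences read 5′ to 3′ on the gene's strand, chr5:90903788-90903845 (plus strand) for Cxcl2 and chr5:92348942-92349117 (minus strand) for Cxcl10.
Cxcl2: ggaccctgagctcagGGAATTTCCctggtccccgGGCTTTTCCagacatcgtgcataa
Cxcl10: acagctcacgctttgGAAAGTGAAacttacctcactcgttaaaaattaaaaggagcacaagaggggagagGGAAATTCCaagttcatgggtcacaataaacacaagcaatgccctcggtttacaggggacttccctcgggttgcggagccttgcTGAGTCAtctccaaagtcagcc

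The motifs were searched on both strands as exact letters. The NF-kB-like motif was spelled GGNNTTTCC, the interferon-response-like motif GAAANNGAA and the AP-1-like motif TGANTCA. Another 3 motifs of myeloid or general promoters were included, spelled TTGCNNAA for C/EBP-like, GAGGAAGT for PU.1-like and TATAAA for the box that many start sites carry upstream (TATA-like). Of 32851 promoters of this length, 5.82% hold the NF-kB-like motif, 8.56% the interferon-response-like, 7.81% the AP-1-like, 10.8% the C/EBP-like, 3.20% the PU.1-like and 13.6% the TATA-like motif. Ccl9 had 1 NF-kB-like, 1 AP-1-like and 3 TATA-like matches, of which a pair overlap on opposite strands. Ccl3 had 1 interferon-response-like match, and the Ccl6 window held none of these letters. A match is a description of the letters and not evidence that a factor binds there.

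Ccl6 and Ccl9 lie next to each other and share sequence around their start sites, so their ends are shown as a pair. Ccl6 occupies chr11:83587882-83593087 and Ccl9 chr11:83572919-83578636 (GRCm38), both protein-coding genes of at most 4 exons on the minus strand, 9.245 kb apart. Their promoter windows align over 74 columns, 59 of them identical (79.7%), whereas no other pair of the 5 windows aligned over more than 12 columns. The alignment runs from 59 bases before to 14 after the start site of Ccl6. For Ccl9 it runs from 18 bases before to 48 after, so most of it lies past that start. The sequences below cover 18 aligned bases, 16 of them identical and set in capitals, after 40 bases that precede the aligned stretch. They are at chr11:83593129-83593186 for Ccl6 and chr11:83578637-83578694 for Ccl9. The stretch ends 1 base before the start site of Ccl9 and 42 bases before that of Ccl6, so the matching letters lie at different distances from the annotated starts.
Ccl6: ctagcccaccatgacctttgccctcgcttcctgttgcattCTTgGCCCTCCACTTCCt
Ccl9: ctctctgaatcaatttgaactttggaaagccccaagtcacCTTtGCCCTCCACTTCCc

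As a group, the 8 genes were higher in monocytes than in progenitors. The sum of the 8 had a median of 164 TPM per cMoP, 3534 TPM per BM monocyte and 4155 TPM per blood monocyte, which is 0.0164%, 0.353% and 0.416% of all TPM of a cell. Between cMoP and BM monocytes, 5 of the 8 were higher (Ccl6, Ccl2, Ccl9, Ccl3 and Cxcl2), 0 were lower, and Ccl4, Cxcl10 and Cxcl16 lay between. Over the 14003 genes measured, meaning those which exceeded 1 TPM in 10% or more of at least 1 population's cells, 3.94% were higher and 30.8% lower in the same comparison. The median difference was 1.99 for the members and -0.45 for all measured genes. All 8 members passed that filter, but Ccl2, Cxcl2 and Cxcl10 did so through monocytes only. In cMoP, mean log2(TPM + 1) was 0.29 for Ccl2, 0.76 for Ccl4, 0.01 for Cxcl2, 0.42 for Cxcl10 and 0.91 for Cxcl16. A value under 1 cannot fall by 1, so these genes could not be called lower in monocytes.

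Between BM and blood monocytes the picture was mixed. Cxcl2, Cxcl16 and Ccl9 were higher in blood, Ccl3 was lower, and the other 4 lay between. Ccl4, Cxcl10 and Cxcl16 could not be called lower, since their BM means of log2(TPM + 1) were 0.81, 0.53 and 0.24. Of all measured genes, 1.96% were higher and 9.66% lower in blood, and the median difference was 0.71 for the members against -0.10 for all genes. The difference from cMoP to blood monocytes is the sum of these steps and uses the same cells. On that scale 4 members were higher (Ccl6, Ccl2, Ccl9 and Cxcl2) and 0 lower, with 4.28% of measured genes higher and 37.7% lower. The members with cMoP means under 1 could not be called lower here either.

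**Figure D1:**
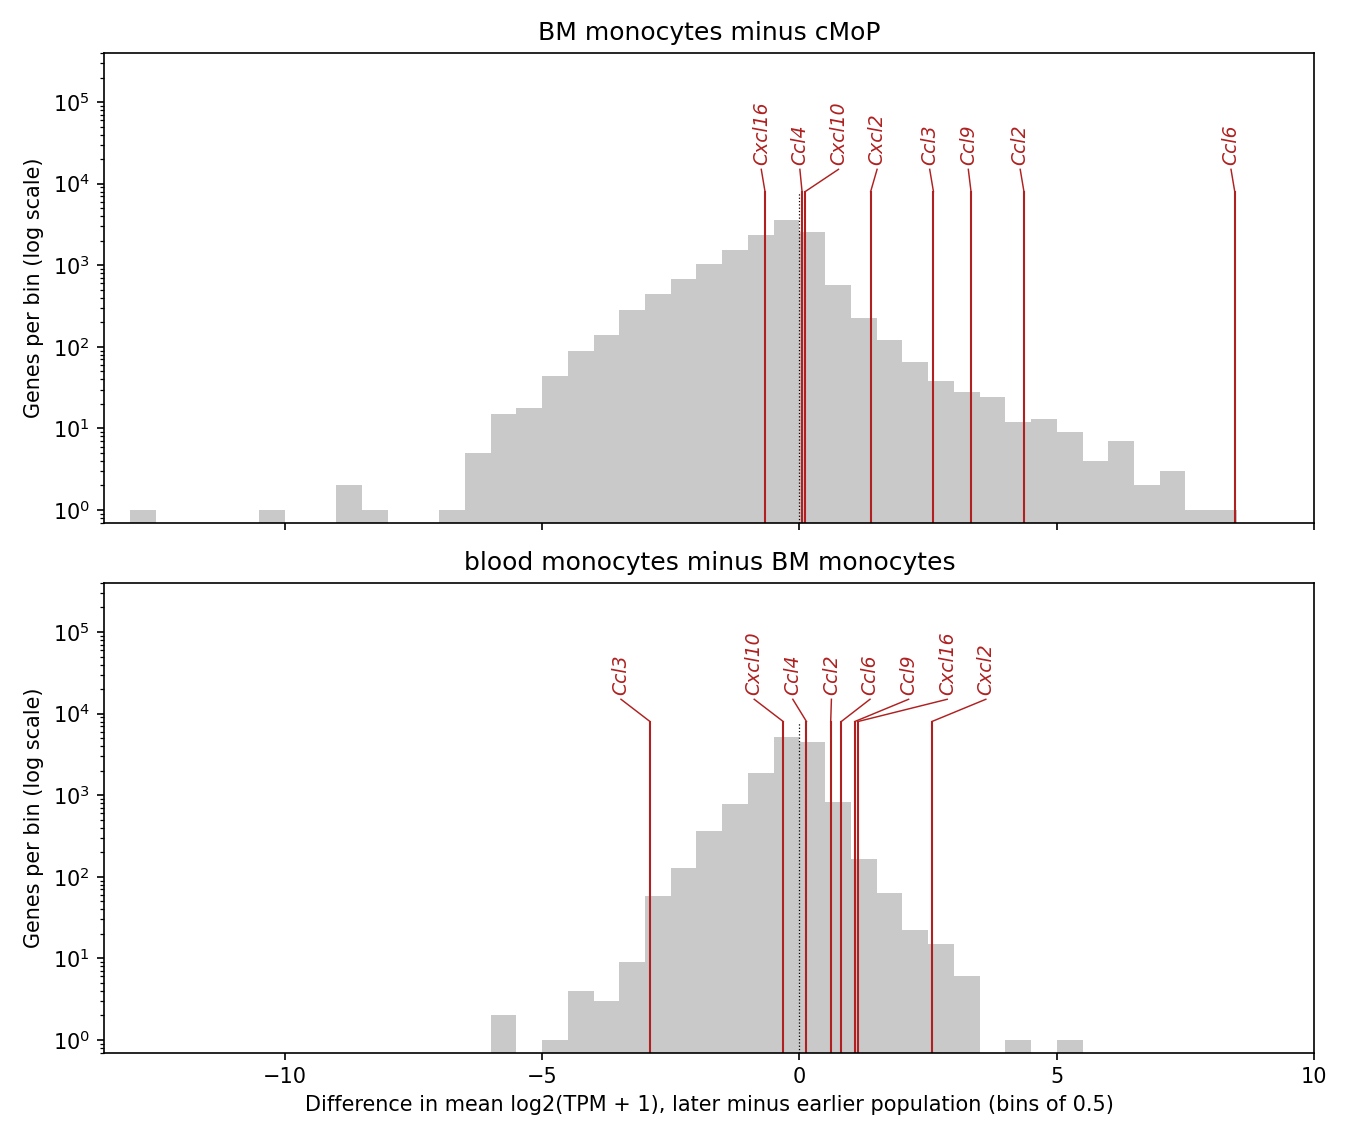
Difference in mean log2(TPM + 1) for BM monocytes minus cMoP (top) and blood minus BM monocytes (bottom), in bins of 0.5 over the 14003 measured genes, with the number of genes on a log scale. Red lines mark the 8 chemokine genes: Ccl6 lies at the right end of the upper plot at 8.46, and Ccl3 lies on the left of the lower plot at -2.90.

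Ccl6, a CC chemokine of rodents that acts on Ccr1, was the most abundant member in monocytes. In cMoP it ran from 0 to 237.54 TPM with a median of 0, and 19 of 66 cells were above 1 TPM (28.8%, interval 18.3 to 41.3%). BM monocytes ran from 0 to 8440.62 TPM with a median of 1677.85, and 56 of 57 cells were above 1 TPM (98.2%, interval 90.6 to 99.96%). Blood monocytes ran from 23.83 to 9586.27 TPM with a median of 2462.1, and all 38 were above 10 TPM. The populations overlapped little, since 53 of 57 BM monocytes and 36 of 38 blood monocytes lay above the highest cMoP. Mean log2(TPM + 1) was 1.69 ± 2.75 in cMoP, 10.15 ± 2.37 in BM and 10.96 ± 1.71 in blood monocytes. The difference of 8.46 between BM monocytes and cMoP ranked 1 from the highest of the 14003 measured genes, and the step to blood was 0.81. The first difference ran from 6.13 to 10.71 over the 9 alternative settings tried.

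Ccl9, the neighbouring gene and another Ccr1 ligand, was already present in most progenitors. It was above 1 TPM in 54 of 66 cMoP (81.8%, interval 70.4 to 90.2%), with a median of 35.13 and a highest value of 688.17 TPM. In BM monocytes it ran from 0.45 to 3086.49 TPM with a median of 547.96, and in blood monocytes from 0 to 2879.28 with a median of 932.705. The ranges overlapped in both steps, and 23 of 57 BM monocytes lay above the highest cMoP. Mean log2(TPM + 1) went from 4.71 ± 2.88 in cMoP through 8.04 ± 2.84 in BM to 9.12 ± 2.58 in blood monocytes. The differences were 3.33 and 1.08, and the second was 0.97 with a pseudocount of 10 and 0.72 as a log2 ratio of mean TPM, both under the threshold of 1.

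The order of the pair within a cell differed between populations. Ccl9 was the higher of them in 51 of 66 cMoP and Ccl6 in 10, with 5 equal. Ccl6 was the higher in 45 of 57 cells from BM and 33 of 38 from blood. Among all 8 members, Ccl9 was the highest in 37 cMoP, while Ccl6 was the highest in 38 BM and 29 blood monocytes. Together these neighbours made up 49.9% of the summed chemokine TPM of cMoP, 73.9% of that of BM and 78.3% of that of blood monocytes. Across the cells of a population their levels were almost unrelated in cMoP (r = 0.04, 66 cells) and BM monocytes (r = 0.07, 57 cells). In blood monocytes r was 0.52 over 38 cells and 0.42 without the 4 libraries low in ribosomal transcripts.

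**Figure D2:**
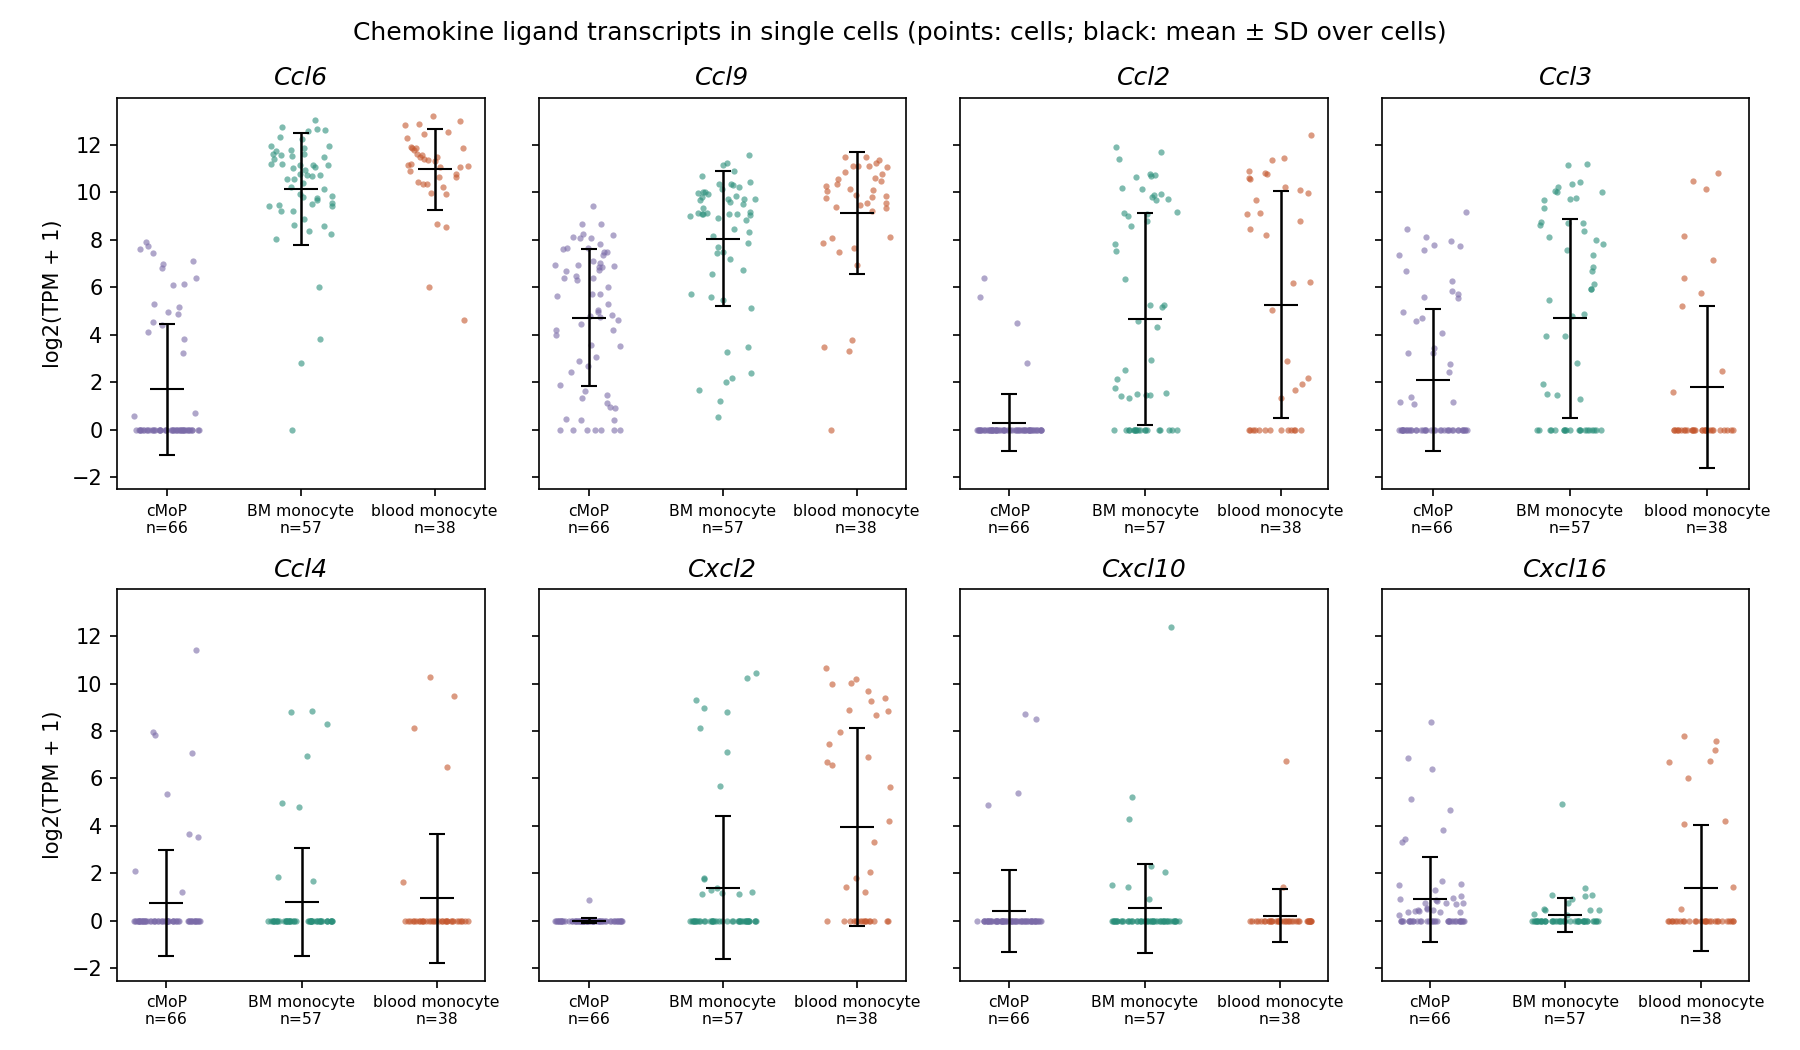
Level of each of the 8 genes as log2(TPM + 1) in 66 cMoP, 57 BM monocytes and 38 blood monocytes, 1 point per cell, with mean ± SD over cells in black. Ccl6 and Ccl9 form continuous clouds in monocytes, while Ccl2, Ccl3 and Cxcl2 split into cells at 0 and cells reaching over 1000 TPM.

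Ccl2, the main ligand of Ccr2, was listed at 0 in 62 of 66 progenitors and was uneven among monocytes. The gene lies at chr11:82035571-82037453 on the plus strand. In cMoP it was above 1 TPM in 4 of 66 cells (6.06%, interval 1.68 to 14.8%), with a highest value of 82.49 TPM. In BM monocytes it ran from 0 to 3810.64 TPM with a median of 6.75, and 38 of 57 cells were above 1 TPM (66.7%, interval 52.9 to 78.6%). In blood monocytes it ran from 0 to 5488.48 TPM with a median of 51.69, and 25 of 38 cells were above 1 TPM (65.8%, interval 48.6 to 80.4%). Both monocyte populations held cells listed at 0 beside cells above 1000 TPM, 9 in BM and 11 in blood. Mean log2(TPM + 1) was 0.29 ± 1.205, 4.65 ± 4.47 and 5.26 ± 4.78. The difference between BM monocytes and cMoP was 4.36, which ranked 42 from the highest of 14003 genes. The step to blood was 0.61, under the threshold of 1, and became -0.24 among cells with 4500 to 6000 genes.

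Ccl3, a ligand of Ccr1, was highest in BM monocytes. In cMoP it ran from 0 to 578.25 TPM with a median of 0 and 27 of 66 cells above 1 TPM (40.9%, interval 28.95 to 53.7%). In BM monocytes it ran from 0 to 2361.23 TPM with a median of 28.15 and 37 of 57 cells above 1 TPM (64.9%, interval 51.1 to 77.1%). In blood monocytes the median was 0, the highest value 1802.91 TPM, and 10 of 38 cells were above 1 TPM (26.3%, interval 13.4 to 43.1%). The 3 ranges overlapped fully at 0, and the share of positive cells set the order BM monocytes, cMoP, blood monocytes. Mean log2(TPM + 1) was 2.09 ± 2.98 in cMoP, 4.70 ± 4.202 in BM and 1.79 ± 3.43 in blood monocytes.

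The Ccl3 difference was 2.60 from cMoP to BM monocytes and -2.90 from BM to blood monocytes, and 0.179% of the 14003 measured genes had a lower value in the second comparison. Among cells with 4500 to 6000 genes above 1 TPM (33 BM, 14 blood) the second difference was -1.25. Blood and cMoP differed by -0.30, which became 1.99 in the same range of genes. By mean TPM blood monocytes were above cMoP, 130 against 41.6 TPM, since 3 blood monocytes lay above 1000 TPM and no cMoP did.

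Ccl4, an inflammatory CC chemokine whose gene lies 13.2 kb from Ccl3 on the opposite strand, did not follow its neighbour. The cMoP above 1 TPM were 9 of 66 (13.6%, interval 6.43 to 24.3%). The BM monocytes above it were 8 of 57 (14.04%, interval 6.26 to 25.8%), and the blood monocytes 5 of 38 (13.2%, interval 4.41 to 28.1%). The median was 0 in all 3 populations, and the highest values were 2756.96, 458.28 and 1250.82 TPM. Its mean in cMoP was 52.1 TPM, but 10.4 TPM without the highest cell. The differences were 0.05 and 0.14, and both changed sign under some settings. The second became -0.38 without cells holding markers of other lineages. The blood monocytes highest in Ccl4, at 1250.82 and 722 TPM, were among those cells, with macrophage marker sums of 138 and 169 TPM. Ccl3 was above 1 TPM in 8 of 9 cMoP, 6 of 8 BM and 3 of 5 blood cells with Ccl4 above 1 TPM. Among all cells of these populations the shares with Ccl3 were 40.9%, 64.9% and 26.3%, so the BM count is near its share. Without the 6 cMoP libraries lacking a flow cell label, 4 cMoP had both and 1 had Ccl4 alone. Most cells with Ccl3 lacked Ccl4, since 31 of the 37 BM monocytes with Ccl3 had no Ccl4 above 1 TPM. Across cells r was 0.42 in cMoP, 0.34 in BM and 0.32 in blood monocytes.

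Cxcl2, a neutrophil attractant that acts on Cxcr2, was above 1 TPM in monocytes of both tissues and in no cMoP. Its gene is at chr5:90903871-90905938, and 7.59% of the 31-base stretches of its transcripts also occur in Cxcl3, a near copy listed at 0 in every cell. It was above 1 TPM in 0 of 66 cMoP, which allows a share of up to 4.55% by a limit of 3 cells and up to 5.44% by the exact interval, and the single cMoP above 0 had 0.82 TPM. In BM monocytes it ran from 0 to 1414.25 TPM with a median of 0 and 16 of 57 cells above 1 TPM (28.1%, interval 16.97 to 41.5%). In blood monocytes it ran from 0 to 1600.22 TPM with a median of 2.82 and 22 of 38 cells above 1 TPM (57.9%, interval 40.8 to 73.7%). Above 10 TPM there were 8 BM and 17 blood monocytes. Mean log2(TPM + 1) was 0.01 ± 0.11, 1.40 ± 3.03 and 3.97 ± 4.18. The difference between blood and BM monocytes, 2.57, ranked 19 from the highest of 14003 genes. That between BM monocytes and cMoP was 1.38, and under 1 with a pseudocount of 10 (0.78) and among cells with 4500 to 6000 genes (0.79).

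Cxcl10, an interferon-induced ligand of Cxcr3, was rare throughout. Cells above 1 TPM numbered 4 of 66 cMoP, 7 of 57 from BM and 2 of 38 from blood, with highest values of 424.08, 5405.38 and 105.18 TPM. The median was 0 in each population. A single BM monocyte held 98.8% of the Cxcl10 TPM of its population, whose mean was 96.0 TPM with that cell and 1.18 TPM without it. The differences in mean log2(TPM + 1) were 0.11 and -0.31, while the log2 ratios of mean TPM, which rest on that cell, were 2.80 and -4.67.

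Cxcl16, a ligand of Cxcr6 that is made as a transmembrane protein and shed by Adam10, was low in most cells. The cMoP above 1 TPM were 13 of 66 (19.7%, interval 10.9 to 31.3%). The BM monocytes above it were 5 of 57 (8.77%, interval 2.91 to 19.3%), and the blood monocytes 9 of 38 (23.7%, interval 11.4 to 40.2%). Above 10 TPM there were 6, 1 and 8 cells, and the highest values were 336.75, 29.45 and 218.4 TPM. The difference between blood and BM monocytes was 1.14, and 0.62 with a pseudocount of 10.

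The cMoP values of Cxcl16 came largely from the 6 libraries without a flow cell label. All 6 were above 1 TPM, from 9.86 to 336.75 TPM with a mean of 100.4, against 7 of the other 60 with a mean of 0.67 and a highest value of 13.14 TPM. Without them the difference between BM monocytes and cMoP was -0.18 in place of -0.67. Ccl4 was above 10 TPM in 4 of those 6 libraries and 3 of the other 60, and Ccl3 above 1 TPM in 6 of 6 and 21 of 60. Ccl2 was above 1 TPM in 1 of the 6, and Cxcl2 was at 0 in all of them. The part of gene detection or sequencing lane in these values was not tested.

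**Figure D3:**
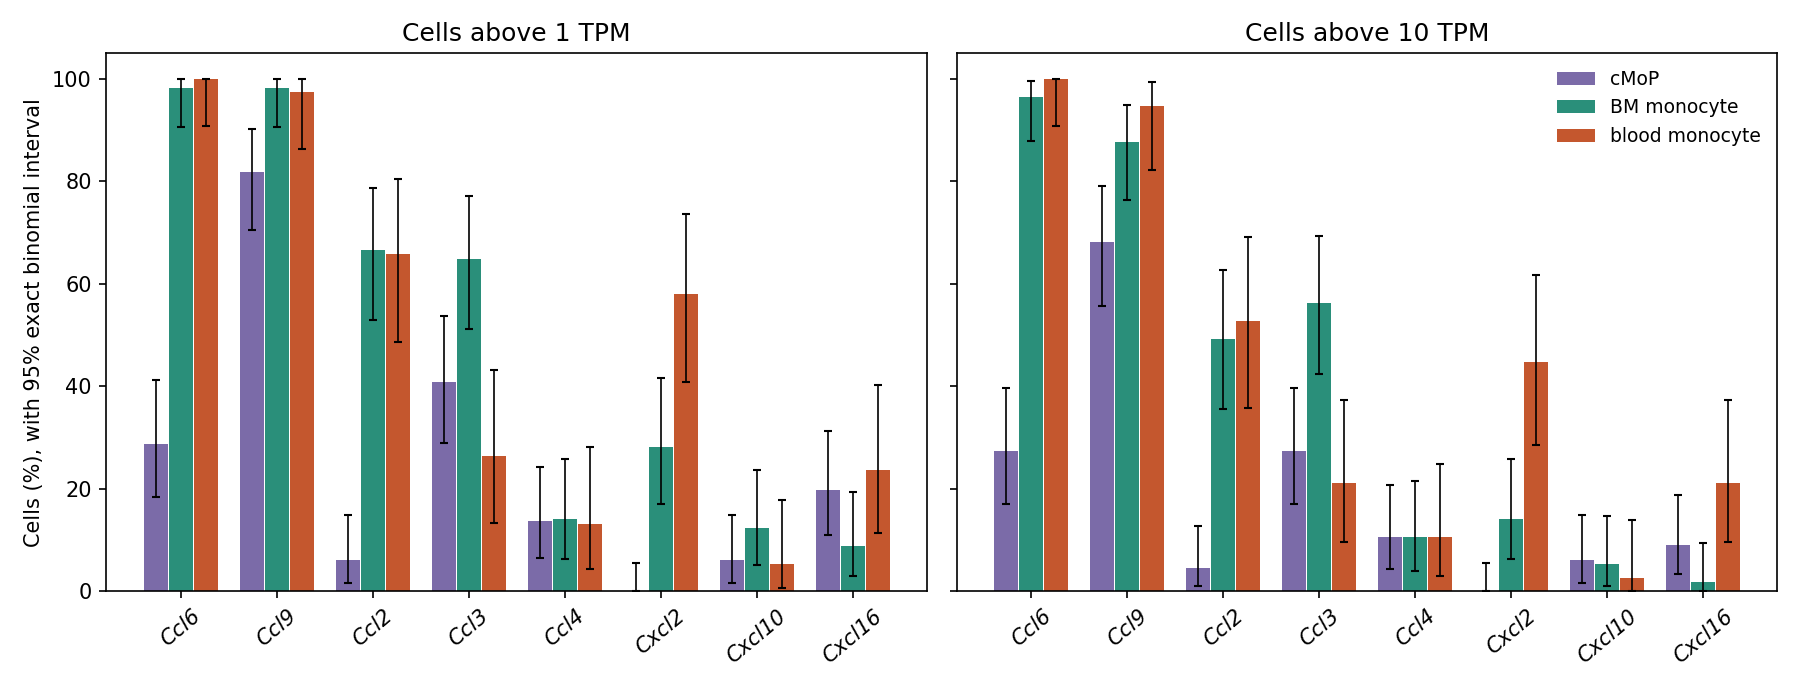
Percent of cells above 1 TPM (left) and above 10 TPM (right) for each gene in cMoP, BM monocytes and blood monocytes, with 95% exact binomial intervals for the number of cells counted. Ccl6 goes from 28.8% in cMoP to 98.2% in BM monocytes, Ccl3 is highest in BM monocytes at 64.9%, and Cxcl2 goes from 0 in cMoP to 57.9% in blood monocytes.

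The members combined differently from cell to cell. A median cMoP had 2 of the 8 above 1 TPM, and a median BM or blood monocyte had 4, with up to 6, 7 and 7. Leaving out Ccl6 and Ccl9, 31 of 66 cMoP but 2 of 57 BM and 4 of 38 blood cells had none of the other 6 above 1 TPM. At least 2 of these 6 lay above 10 TPM in 9 cMoP, 23 BM and 17 blood monocytes. No cell had more than 7 of the 8 above 1 TPM. The cells with 7 were a pair, of which one was a BM monocyte with Ccl6 at 1637.71, Ccl9 at 486.24, Ccl2 at 1729.94, Ccl3 at 2303.22, Ccl4 at 451.59, Cxcl2 at 1414.25 and Cxcl16 at 29.45 TPM. The other was a blood monocyte that lacked Ccl4 and had Ccl6 at 366.49, Ccl9 at 746.36, Ccl2 at 2796.42, Ccl3 at 81.9, Cxcl2 at 409.04, Cxcl10 at 105.18 and Cxcl16 at 145.99 TPM. In contrast, the BM monocyte highest in Ccl2, at 3810.64 TPM, had 12.91 TPM of Ccl6, 3.04 TPM of Ccl9 and no Cxcl2.

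**Figure D4:**
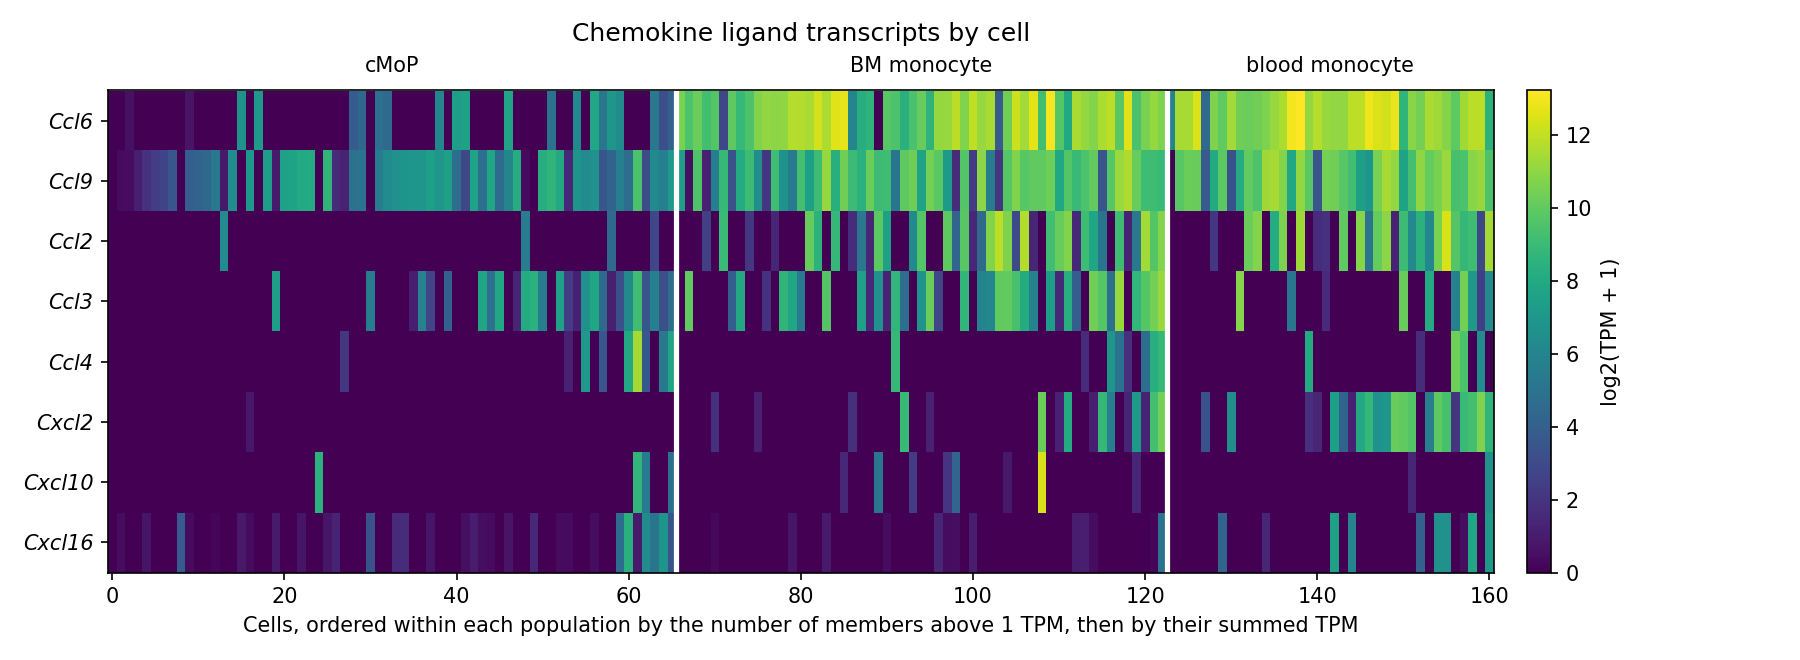
Levels of the 8 genes (rows) as log2(TPM + 1) in each of the 161 cells (columns), ordered within each population by the number of genes above 1 TPM and then by summed TPM. Ccl6 and Ccl9 fill nearly all monocyte columns, while the other 6 genes appear in varied combinations, with a median of 2 members per cMoP and 4 per monocyte.

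Pairs of inducible ligands were compared across the cells of a population as a description, since each population is 1 sample and its libraries differ in quality. In blood monocytes Ccl2 and Cxcl2 were both above 1 TPM in 17 cells, Ccl2 alone in 8, Cxcl2 alone in 5 and neither in 8 (r = 0.35, and 0.29 without the 4 libraries low in ribosomal transcripts). Cxcl2 was thus found in 17 of the 25 blood monocytes with Ccl2, against 57.9% of all blood monocytes. In BM monocytes the same pair met in 10 of the 38 cells with Ccl2 (r = 0.06). This is near the 28.1% of all BM monocytes with Cxcl2. Ccl2 and Ccl3 met in 24 of 57 BM monocytes (r = 0.25) and in 8 of 38 blood monocytes (r = 0.13). The cells with Ccl2 numbered 38 and 25. Among all cells the shares with Ccl3 were 64.9% and 26.3%, so the BM count is near its share. In cMoP, Ccl4 and Cxcl16 gave r = 0.46, which was 0.009 without the 6 libraries lacking a flow cell label.

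Genes of the responses that are known to switch these ligands on were followed as lists. Of 22 measured NF-kB response genes, BM monocytes had 7 higher and 2 lower than cMoP. Blood monocytes had 7 higher and 0 lower than BM monocytes, with a median difference of 0.81 in this second step. Of all measured genes, 3.94% were higher and 30.8% lower in the first step. In the second, 1.96% were higher and 9.66% lower. Nfkbia, the inhibitor that NF-kB induces, had means of 30.5, 250.6 and 646 TPM in cMoP, BM and blood monocytes, and differences of 2.22 and 2.44. Il1b, which encodes an inflammatory cytokine, had means of 25.6, 48.7 and 181 TPM, and was higher in blood than in BM monocytes by 1.87. Nfkb1 and Sod2 were lower in BM monocytes than in cMoP, with differences of -1.202 and -1.41.

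Of 14 measured immediate early genes, which respond to stimulation and also to cell handling, BM monocytes had 9 higher and 0 lower than cMoP. The shares of all measured genes were 3.94% higher and 30.8% lower. Blood monocytes had 6 higher and 0 lower than BM monocytes, against 1.96% and 9.66% of all measured genes. Atf3, a stress-induced transcription factor, had means of 14.2, 401.5 and 984 TPM. Dusp1, a phosphatase that restrains MAP kinases, had means of 42.2, 512 and 1263 TPM. The part of cell handling in the levels of Cxcl2 and the other ligands was not tested.

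Of 23 measured interferon response genes, BM monocytes had 9 higher and 1 lower than cMoP, against 3.94% and 30.8% of all measured genes. Blood monocytes had 0 higher and 2 lower than BM monocytes, while 1.96% of all measured genes were higher. The 2 lower of 23 are close to the 9.66% of all measured genes that were lower in that comparison. Ifi27l2a had means of 25.1, 1375 and 1985 TPM, and Irf7, the factor that amplifies the interferon response, 9.56, 368 and 355 TPM. Usp18, which dampens interferon signalling, was lower in blood than in BM monocytes, with a difference of -2.06. Cxcl10 itself was not called in any comparison.

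Within populations, levels of the members were set beside the mean of each list. For Cxcl2, r with the mean log2(TPM + 1) of the NF-kB list was 0.36 over 57 BM monocytes and 0.63 over 38 blood monocytes, and with the immediate early list 0.57 and 0.51. Without the low ribosomal libraries the blood values were 0.66 and 0.61. The number of genes above 1 TPM gave r = -0.18 and 0.16 with Cxcl2 in the same populations. For Ccl2 the NF-kB list gave 0.28 and 0.26, and for Ccl3 0.17 and 0.22. In BM monocytes Ccl4 (0.37) and Ccl9 (0.35) had values near that of Cxcl2. With the immediate early list in blood monocytes, Ccl6 had 0.49 and Ccl9 0.43, and 0.28 and 0.35 without the low ribosomal libraries. Cxcl10 had r = 0.44 with the interferon list in BM monocytes, over 7 cells above 1 TPM. Cxcl16 had r = 0.74 with the NF-kB list in cMoP, which became 0.07 without the libraries lacking a flow cell label or low in ribosomal transcripts, and 0.45 in blood monocytes.

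The genes most like a member were searched for in each population of which 25% or more exceeded 1 TPM of that member. In blood monocytes, over 38 cells and 4906 genes, Ccl6 was closest to Alox5ap (r = 0.76), Tyrobp (0.73) and Cyba (0.70), and these fell to 0.62, 0.50 and 0.48 without the 4 libraries low in ribosomal transcripts. Ccl9 was closest to Klf6 (0.61), Ccl2 to Edf1 (0.62) and Cxcl2 to Cpox (0.62), with 0.56, 0.61 and 0.62 without those libraries. Cpox was low, with a mean of 4.48 TPM in blood monocytes. These are the highest of 4906 values over 38 cells, and how high r would rise for unrelated genes was not tested. No gene reached 0.6 with Ccl6, Ccl9 or Ccl3 in cMoP, or with these, Ccl2 or Cxcl2 in BM monocytes, and the other members were not searched there. Those populations hold more cells, 66 and 57, so the same cut of 0.6 is harder to reach in them.

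The other chemokine ligands gave little signal. Of the 29, 7 passed the filter, and 0 of these were higher and 0 lower in any of the 3 comparisons. From cMoP to BM monocytes, 3.94% of all measured genes were higher and 30.8% lower. The 7 could not be called lower, since their cMoP and BM means of log2(TPM + 1) were at most 0.99. A further 10 were listed at 0 in every cell: Ccl8, Ccl17, Ccl26, Cxcl3, Cxcl13, Cxcl14, Pf4, Ppbp, Xcl1 and Cx3cl1. Ccl5, which attracts T cells and monocytes, was above 1 TPM in 8 cMoP, 7 BM and 7 blood monocytes, with means of 12.9, 7.58 and 13.8 TPM. Ccl27a, a skin chemokine, had means of 13.3 and 9.18 TPM in cMoP and BM monocytes and was listed at 0 in all blood monocytes. Cxcl11, a Cxcr3 ligand like Cxcl10, was above 1 TPM in 12, 9 and 9 cells with means of 0.58, 0.61 and 1.18 TPM.

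Transcripts of receptors for the members were looked up in the same populations. Ligand and receptor were not paired cell by cell. Of 23 receptor genes, 10 were measured. Ccr2, the receptor of Ccl2, was above 1 TPM in all 161 cells, with means of 253, 1503 and 1284 TPM in cMoP, BM and blood monocytes and a difference of 2.95 in the first step. Ccr1, the receptor of Ccl6, Ccl9 and Ccl3, was above 1 TPM in 6 of 66 cMoP, 22 of 57 BM and 13 of 38 blood monocytes, and was higher in BM monocytes than in cMoP by 1.73. Cxcr2, the receptor of Cxcl2, had means of 10.5, 5.60 and 13.3 TPM. Cxcr3, the receptor of Cxcl10, had means of 2.13, 2.005 and 0.03 TPM, and Cxcr6, the receptor of Cxcl16, did not pass the filter on low values.

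Receptors for ligands outside the 8 were called in both steps. Cxcr4, which holds cells in the marrow through Cxcl12, was lower in BM monocytes than in cMoP (difference -2.37) and higher in blood than in BM monocytes (1.33). Cx3cr1, the receptor of Cx3cl1, was higher in each step, by 1.13 and 1.14. Ccrl2, a non-signalling receptor that presents chemerin and also an NF-kB target, was higher in blood than in BM monocytes by 1.46.

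**Figure D5:**
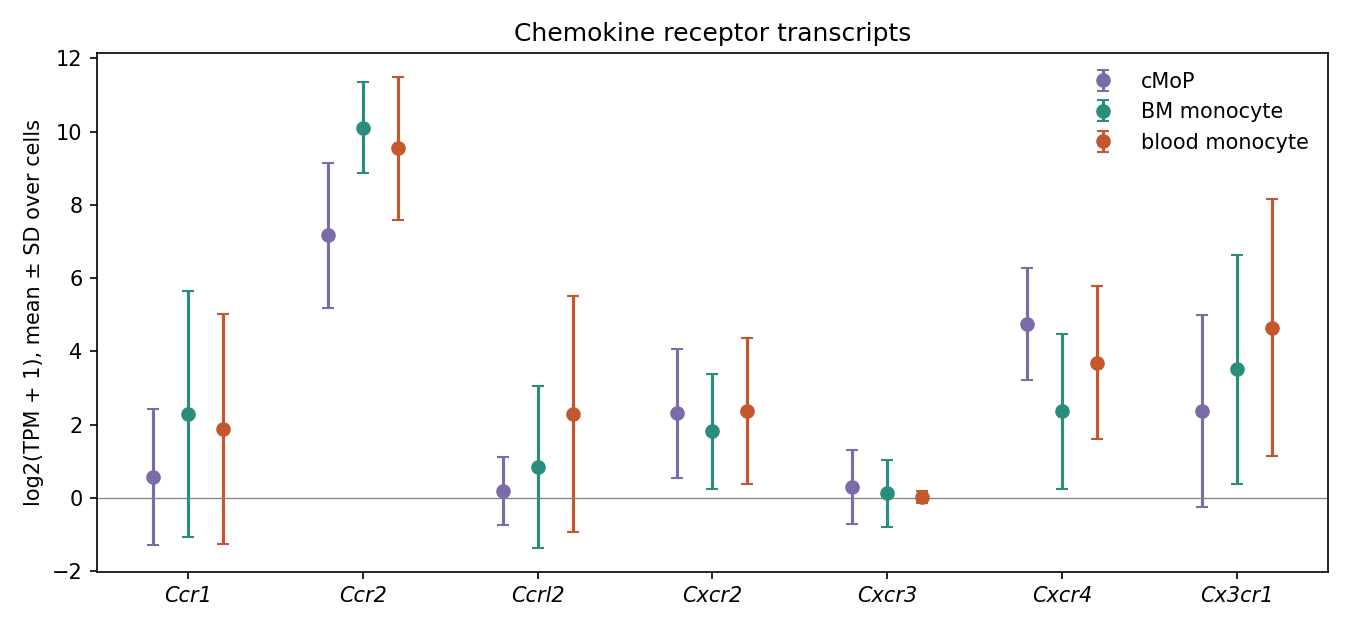
Mean ± SD over cells of log2(TPM + 1) for 7 of the measured chemokine receptor genes in cMoP, BM monocytes and blood monocytes. Ccr2 is the highest of those plotted in each population, Cxcr4 is lower in BM monocytes than in cMoP (difference -2.37), and Ccrl2 and Cx3cr1 are highest in blood monocytes.

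Enzymes that cut chemokines from the membrane or trim them were followed last. Adam10, the main sheddase of Cxcl16, had means of 68.2, 95.03 and 103 TPM and was called in no comparison (0.30 and -0.85). Mmp8, a collagenase that also cleaves chemokines, was higher in BM monocytes than in cMoP by 3.28. It was lower in blood than in BM monocytes (difference -1.47), and is also 1 of the 7 neutrophil markers used above. The granule proteases Elane, Ctsg and Prtn3 were above 1 TPM in all 66 cMoP and lower in BM monocytes, with differences of -10.15, -8.97 and -8.83.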

How the data were processed

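Each of the 161 libraries is 1 cell. The deposited values are TPM per gene and cell, made by the authors with RSEM 1.2.19 on GRCm38 per the submitters' processing notes. Aligner and annotation: not given in the sources used here. TPM keeps no read depth, so depth is unknown, and values in a cell sum to a fixed total. Groups were taken from the labels; 0 columns had no matching library. No label names an animal, so each population was 1 sample and no test was run.

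The pseudocount was 1, and a difference of 1 was called. The 8 members and the gene lists were chosen with earlier results of these data known. Besides the members, up to 4 measured genes of a list with the largest differences could be named; Cxcr2, Cxcr3 and Cxcr6 (partners of members), Nfkb1 and Sod2 (the lower genes of their list), and markers and ligands at 0 were named after their values were seen. For likeness, genes above 1 TPM in at least 25% of a population's cells were searched, predicted, mitochondrial and ribosomal genes left out, and up to 3 per member named at r of 0.6 or more.

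Doublets were not called. The script was tested on simulated data. Gene positions are from GENCODE annotation of GRCm38. Python 3.11.15, numpy 2.4.6, pandas 2.3.3, scipy 1.17.1, matplotlib 3.10.9 and Biopython 1.88 were used.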

Additional observations from a re-analysis of the deposited data

How the results depend on the processing

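Of 54 alternative counts of members, 49 stayed within 1.5 times the count reported. The number lower in BM monocytes than in cMoP, 0 as reported, was 1 with a pseudocount of 0.1 and 2 as a log2 ratio of mean TPM. The ratio also gave 2 lower in blood than in BM monocytes (1 as reported) and 1 lower in blood monocytes than in cMoP (0 as reported). With a pseudocount of 10 the number higher in blood than in BM monocytes was 1 in place of 3. In BM monocytes minus cMoP, Ccl6, Ccl9, Ccl2, Ccl3, Cxcl2 and Cxcl16 kept their sign under all 9 alternatives. In blood minus BM monocytes, Ccl6, Ccl9, Ccl3, Cxcl2 and Cxcl16 did so, while Ccl2 changed sign among cells with 4500 to 6000 genes. Ccl4 and Cxcl10 changed sign in both steps under at least 1. Median-ratio scaling moved the median of all genes by 0.12 from cMoP to BM monocytes and by 0.16 from cMoP to blood monocytes and changed none of the counts. Without a filter on low values the shares of all genes higher and lower were 1.28% and 9.97%, 0.633% and 3.12%, and 1.39% and 12.2% in the 3 comparisons. With a threshold of 10 TPM in place of 1 TPM, 17 shares of cells stayed inside their reported interval and 7 left it. Among the 7, Ccl2 in BM monocytes went from 66.7% to 49.1%. In cMoP, Ccl9 went from 81.8% to 68.2% and Ccl3 from 40.9% to 27.3%. In 1 alternative chosen after seeing the data, cells with over 100 TPM of basophil and mast cell, eosinophil, macrophage, T cell, B cell, platelet or erythroid markers (11 cMoP, 4 BM and 5 blood monocytes) were left out, and the counts of members were the same. Cells over that sum for NK cell, neutrophil, dendritic cell or stromal markers stayed in. No paired analysis was possible because the labels pair no samples and no test was run. Depth cannot be judged from TPM, so an absent transcript is only one listed at 0.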
